A study of Mus musculus with 3 samples.

Results

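Creatine kinase moves a phosphate group between ATP and creatine, and muscle uses the pair of creatine and phosphocreatine to carry energy from mitochondria to the places where ATP is spent. The 8 genes described here are the 4 creatine kinase genes (Ckm, Ckb, Ckmt1 and Ckmt2), the 3 genes of creatine supply (Gatm and Gamt for synthesis, Slc6a8 for uptake) and Ak1, a cytosolic adenylate kinase that remakes ATP from ADP. They were taken by gene name from the annotation deposited with the data, out of 20117 loci with a protein-coding RefSeq transcript (mRNA loci) and 48626 loci in all. Each of the 8 names led to a single locus.

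The data are RNA levels of C57BL/6 mouse heart ventricle from E10.5 embryos, E13.5 embryos (E stands for embryonic day) and 8-week adults. No treatment or altered allele is given for any of them. Each stage is a single library of total RNA, and the labels do not say how many animals went into it, so no p-value or error between animals can be given and every difference below has no replicate check. Levels are in FPKM, the number of fragments scaled to exon length and library size, and can therefore be compared between genes of a library.

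Cytosolic creatine kinase is a dimer of M chains, the form of mature muscle, B chains, the form of brain and many other tissues, or both. The mitochondrial forms are encoded by Ckmt2, the form of heart and skeletal muscle, and by Ckmt1, the form found in most other tissues, and they sit between the mitochondrial membranes next to the carriers that export ATP. Creatine itself is made from arginine and glycine by GATM, which is abundant in kidney, and GAMT, which is abundant in liver, and reaches the heart mainly through the transporter SLC6A8.

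In these libraries the adult ventricle had far more RNA of the muscle forms Ckm and Ckmt2 than either embryonic ventricle, and less of Ckb, Gamt and Gatm. Slc6a8 and Ak1 were higher in the adult by smaller factors. Ckmt2 did not follow a steady course, since its level was lower at E13.5 than at E10.5 before the adult level.

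**Figure D1:**
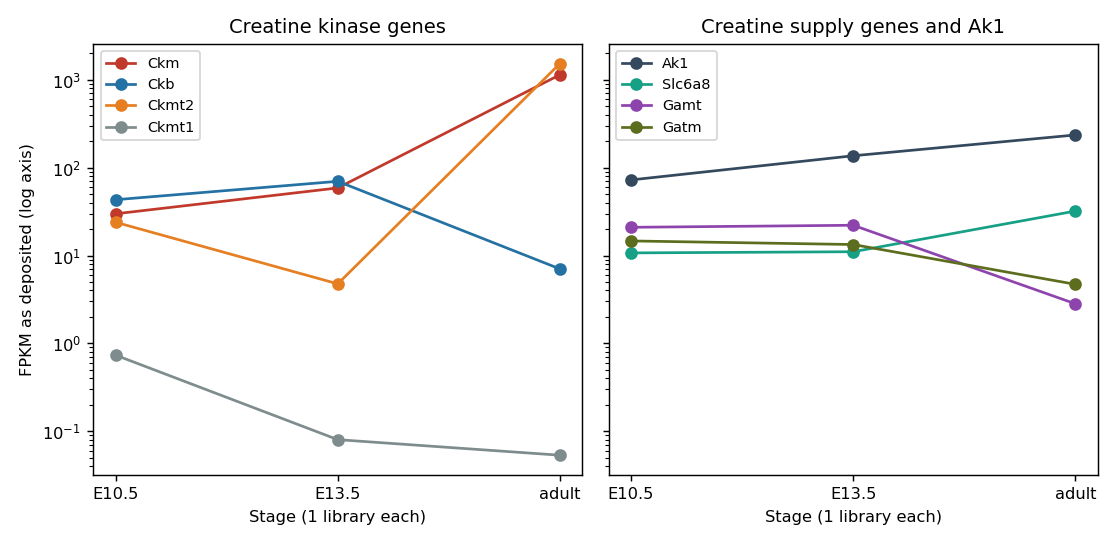
FPKM of the 4 creatine kinase genes (left) and of the supply genes and Ak1 (right) at the 3 stages, on a log axis. Each point is 1 library and has no error bar. Ckm and Ckmt2 end at 1142 and 1531 FPKM in the adult, while Ckb, Gamt and Gatm end below their embryonic levels.

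The muscle form Ckm (GRCm38 chr7:19411094-19421583, plus strand, 8 exons) was at 29.9 FPKM in the E10.5 library, 58.8 in the E13.5 library and 1142 in adult ventricle. The adult level was 38.2 times that of E10.5 and 19.4 times that of E13.5, and the E13.5 level was 1.97 times that of E10.5. Ckm stood at rank 2284 among the mRNA loci of E10.5, at rank 1251 in E13.5 and at rank 25 in the adult.

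The brain form Ckb (chr12:111669355-111672338, minus strand, 8 exons) was at 43.2 FPKM in the E10.5 library, 69.9 in the E13.5 library and 7.04 in adult ventricle. It was the highest of the 4 creatine kinase genes in both embryonic libraries. The E13.5 level was 9.93 times that of the adult and the E10.5 level 6.13 times. Within each library Ckm was 0.692 times Ckb in the E10.5 library, 0.841 times in the E13.5 library and 162 times in adult ventricle.

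Of the mitochondrial forms, Ckmt2 (chr13:91853387-91876885, minus strand, 10 exons) was at 23.9 FPKM in the E10.5 library, 4.76 in the E13.5 library and 1531 in adult ventricle. The E10.5 level was 5.02 times that of E13.5, and the adult level was 322 times that of E13.5 and 64.0 times that of E10.5. In the adult Ckmt2 stood at rank 18 of all mRNA loci, above Ckm. Going by the lowest steps of the values (about 26.7 fragments per FPKM and kb at E13.5), the Ckmt2 value at E13.5 rests on about 189 fragments and that at E10.5 on about 490, so the lower value was not one of a few fragments.

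The other mitochondrial form, Ckmt1 (chr2:121358641-121363737, plus strand, 9 exons), was at 0.735 FPKM in the E10.5 library, 0.0802 in the E13.5 library and 0.0534 in adult ventricle. These values correspond to about 16.1, 3.4 and 1.2 fragments, so Ckmt1 was near the limit of detection after E10.5. It is the only member that stayed under 1 FPKM in all 3 libraries and therefore did not enter the 12569 mRNA loci over which changes were counted, which hold the other 7 members.

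The sum of the 4 creatine kinase genes was 97.7, 134 and 2679 FPKM (E10.5, E13.5, adult). Ckb held 44.2% of this sum in the E10.5 library, 52.4% in the E13.5 library and 0.263% in adult ventricle. The share of Ckm was 30.6%, 44.0% and 42.6%, so it was close between E13.5 and the adult although its level differed by a large factor. Ckmt2 held 24.5%, 3.56% and 57.1%. Within the cytosolic pair, Ckm made up 40.9%, 45.7% and 99.4% at the 3 stages, and the mitochondrial pair made up 25.2%, 3.62% and 57.1% of all 4 genes. A share within a library does not depend on how the libraries are scaled.

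**Figure D2:**
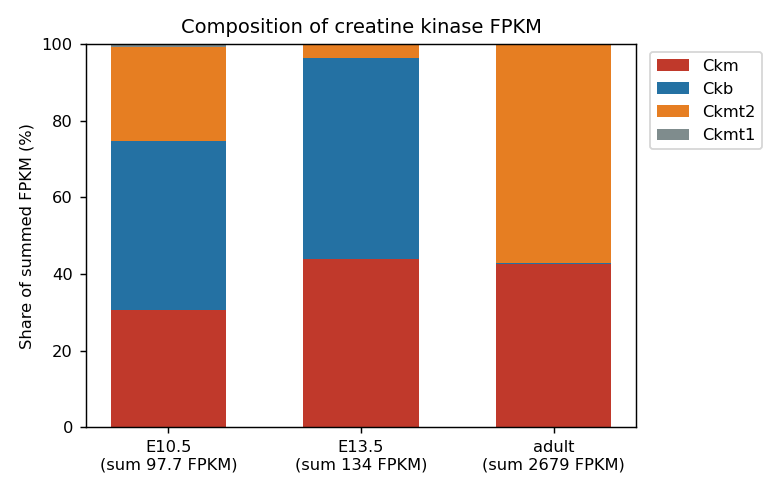
Share of the summed FPKM of the 4 creatine kinase genes (%) held by each gene at each stage, 1 library per bar, with the sum under each bar. Ckb takes the largest part at E10.5 and E13.5 and 0.263% in the adult, where Ckmt2 and Ckm take 57.1% and 42.6%.

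Gatm (chr2:122594473-122611277, minus strand, 9 exons), whose enzyme makes the precursor guanidinoacetate, was at 14.7 FPKM in the E10.5 library, 13.3 in the E13.5 library and 4.70 in adult ventricle. Gamt (chr10:80258151-80260968, minus strand, 6 exons), whose enzyme adds the methyl group that completes creatine, was at 21.0, 22.1 and 2.82 FPKM. The E10.5 level was 3.12 times the adult level for Gatm and 7.42 times for Gamt. The embryonic levels of each gene lay close together and above the adult level.

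The transporter gene Slc6a8 (chrX:73673133-73682500, plus strand, 13 exons) was at 10.7 FPKM in the E10.5 library, 11.0 in the E13.5 library and 32.1 in adult ventricle, which is 2.99 times the E10.5 level. The ratio of Slc6a8 to Gamt was 0.511 in the E10.5 library, 0.50 in the E13.5 library and 11.4 in adult ventricle. The transporter was thus below the synthesis gene in both embryonic libraries and above it in the adult. Gamt was 1.43 times Gatm in the E10.5 library, 1.66 times in the E13.5 library and 0.60 times in adult ventricle.

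Ak1 (chr2:32621758-32638215, plus strand) was at 72.5 FPKM in the E10.5 library, 137 in the E13.5 library and 236 in adult ventricle, the highest member in both embryonic libraries and the third in the adult. Among 7 adenylate kinase genes it held 37.1%, 45.9% and 71.4% of the summed FPKM. The sum over these 7 genes was 195, 298 and 330 FPKM, which differed by a smaller factor than that of the creatine kinases.

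A change below is a difference of log2(FPKM + 1), counted once it reached 2 in size. From E10.5 to E13.5, 0 of 8 members were higher by this measure and 1, Ckmt2, was lower (-2.11). Over all 12569 mRNA loci, 0.851% were higher and 0.247% were lower. From E13.5 to the adult, 2 members were higher, Ckmt2 (8.05) and Ckm (4.26), and 2 were lower, Ckb (-3.14) and Gamt (-2.60), against 4.41% of the loci higher and 9.88% lower. Between E10.5 and adult the same 4 members passed in the same directions, Ckmt2 with 5.94, Ckm with 5.21, Ckb with -2.46 and Gamt with -2.52, against 5.59% higher and 8.1% lower. The 3 comparisons share libraries and are not independent of each other.

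The members not past this size between E10.5 and the adult were Ak1 (1.69), Slc6a8 (1.497), Ckmt1 (-0.72) and Gatm (-1.46). For the 8 members the median change was 0.06 from E10.5 to E13.5, 0.37 from E13.5 to the adult and 0.39 from E10.5 to the adult. Over all mRNA loci it was 0.17, -0.50 and -0.40. Among the 12569 loci the change of Ckmt2 from E13.5 to the adult was at rank 1 from the top, and its change from E10.5 to E13.5 at rank 22 from the bottom. From E10.5 to the adult, Ckmt2 was at rank 3 and Ckm at rank 12 from the top.

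The scaling of the libraries bears on these counts. Rescaled by the median of ratios over mRNA loci, the median change over these loci lay between -0.06 and 0.04. The loci past 2 were then 0.708% higher and 0.382% lower from E10.5 to E13.5, 7.12% and 6.11% from E13.5 to the adult, and 7.86% and 6.09% from E10.5 to the adult. Ak1 then passed 2 between E10.5 and the adult (2.10), and Ckb and Gamt stayed past it (-2.08 and -2.19). The change of Slc6a8 from E10.5 to E13.5 was 0.04 as deposited and -0.10 rescaled, and that of Gamt 0.07 and -0.08, so neither has a direction that holds.

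**Figure D3:**
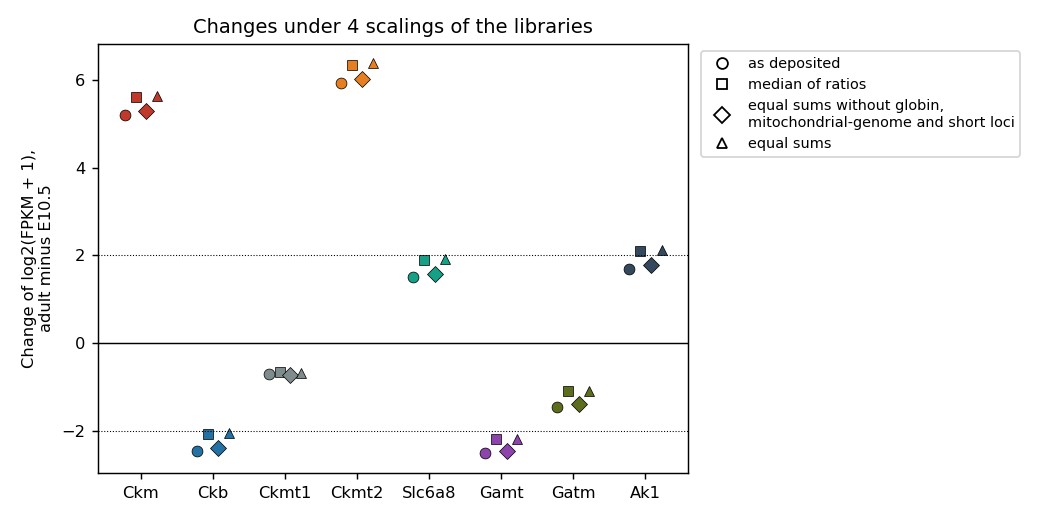
Change of log2(FPKM + 1) from E10.5 to the adult for each member under the deposited scaling and 3 rescalings, 1 library per stage; dotted lines mark 2 and -2. The sign of each member is the same under all 4 scalings, Ckmt2 and Ckm lie above 5 and Ak1 crosses 2 with median of ratios and with equal sums.

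Few loci shared the course of Ckmt2. Of the 12569 mRNA loci, 6 (0.0477%) were lower by 2 or more from E10.5 to E13.5 and higher by 2 or more from E13.5 to the adult. Beside Ckmt2 these held Myom2, a protein of the sarcomere's M-band, at 8.20, 0.636 and 212 FPKM, and Lpl, the lipoprotein lipase that frees fatty acids for muscle, at 82.8, 13.3 and 1116 FPKM. The joined locus of Ly6a, Ly6c1 and Ly6c2 was at 6.51, 0.704 and 270 FPKM. The remaining 2 are listed at 0 in E13.5, where a 0 can be a failed estimate.

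**Figure D4:**
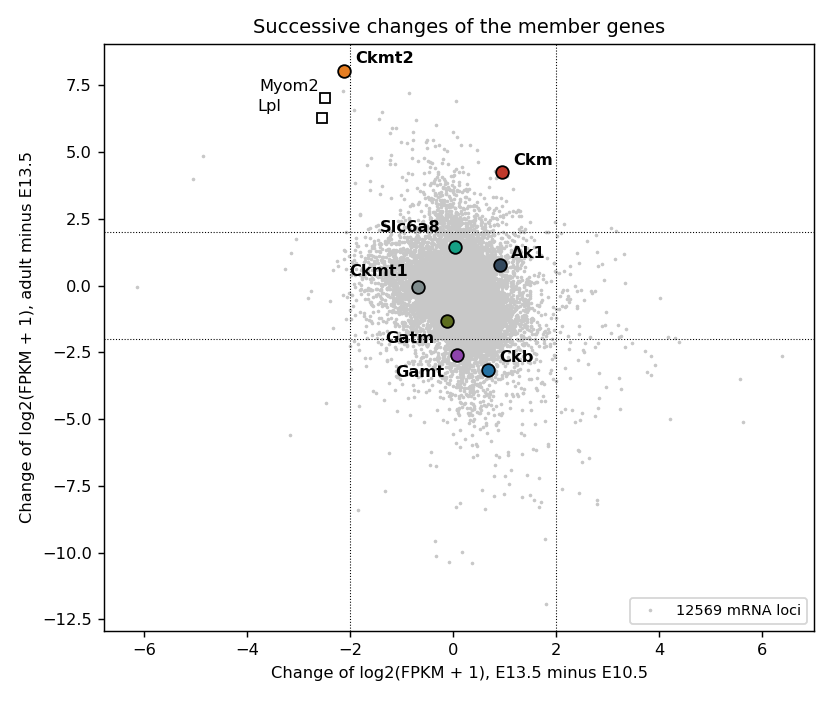
Change of log2(FPKM + 1) from E10.5 to E13.5 (horizontal) against that from E13.5 to the adult (vertical) for 12569 mRNA loci (grey) and the 8 members (coloured); both axes share the E13.5 library, so the cloud leans by construction. Ckmt2 lies at -2.11 and 8.05, next to Myom2 and Lpl (white squares), while Ckm lies at 0.95 and 4.26.

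The RNA of markers of other cell types also differed between the libraries, and in a whole ventricle fewer cells of a type cannot be told apart from less RNA per cell. The 6 cardiomyocyte markers summed to 6747, 9102 and 9464 FPKM (E10.5, E13.5, adult), with none at 0. From E10.5 to E13.5 5 of the 6 were higher and 1 lower, and from E13.5 to the adult 2 were higher and 4 lower. Among the latter, Nkx2-5 was at 46.8, 61.1 and 9.37 FPKM. The 4 endothelial markers summed to 191, 121 and 207 FPKM, none at 0. Of these, Cdh5 and Kdr were lowest at E13.5, as Ckmt2 was, while Pecam1 was lowest at E10.5 and Tek in the adult. The 5 erythroid markers, none at 0, summed to 6758, 16349 and 24.5 FPKM, a sum carried mostly by Hbb-y in the embryonic libraries. From E10.5 to E13.5 2 of the 5 were higher and 3 lower. Alas2, at 18.2, 34.1 and 19.6 FPKM, held most of the adult sum. Its adult level was slightly above its E10.5 level, whereas the other 4 markers had less RNA in the adult. The erythroid sum therefore cannot be read as an amount of erythroid cells. The 5 macrophage markers summed to 37.6, 73.5 and 342 FPKM. The part of these cells in the Ckmt2 values was not tested.

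Smooth muscle and nerve are known to carry Ckb. The 4 smooth muscle markers summed to 1311, 1226 and 187 FPKM (E10.5, E13.5, adult), none at 0, and 3 of the 4 (Acta2, Tagln and Cnn1) were lower by 2 or more in the adult than at E13.5. The fourth, Myh11, went the other way, at 0.112, 0.893 and 18.1 FPKM. Acta2 alone held 1090, 836 and 124 FPKM of the sum, so the sum cannot be read as an amount of smooth muscle. The 5 neural markers summed to 9.20, 14.6 and 5.74 FPKM, with none at 0, of which Tubb3 held 7.90, 9.49 and 1.72. From E10.5 to the adult 3 of the 5 were lower and 2 higher, Stmn2 (0.742, 4.66 and 3.53 FPKM) and Syp (0.338, 0.340 and 0.447). The part of smooth muscle and nerve in the Ckb values was not tested. For Gamt, 5 liver markers summed to 8.08, 18.2 and 0.184 FPKM, with Serpina1a at 0 in E10.5 and Alb at 0 in the adult, and their part in the Gamt values was not tested. For Gatm, 4 kidney markers were each under 0.2 FPKM in every library, with Aqp2 at 0 in all 3, and their part in the Gatm values was not tested.

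Skeletal muscle also carries Ckm. Its 5 markers, none at 0, summed to 318, 234 and 109 FPKM, of which Acta1, an actin that the heart also makes, held 266, 171 and 105. The adult skeletal myosin Myh4 was under 0.01 FPKM in each library. Mylpf was at 29.9, 8.69 and 1.46 FPKM and Tnnt3 at 4.21, 3.47 and 0.563. Tnni2, at 17.5, 51.0 and 1.52 FPKM, was higher at E13.5 than at E10.5, as Ckm was. The part of skeletal muscle in the Ckm values was not tested.

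The 10 mitochondrial yardstick genes, of the respiratory chain, the ATP synthase and the citrate cycle, had median levels of 270, 310 and 568 FPKM (E10.5, E13.5, adult). Their changes from E10.5 to the adult ran from 0.73 for Cs, citrate synthase, to 1.67 for Sdha, a subunit of succinate dehydrogenase. Ckmt2 stood at 8.84% of that median in the E10.5 library, 1.54% in the E13.5 library and 270% in adult ventricle, a far larger change than that of the yardstick itself. For the 10 contractile yardstick genes the median was 441, 953 and 1300 FPKM, and 3 of them were higher by 2 or more from E10.5 to the adult, Myoz2 (3.87), Tcap (2.74, in a locus joined with Pnmt) and Tnnt2 (2.33). Ckm stood at 6.77%, 6.17% and 87.8% of that median.

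The other genes of the pathway were grouped in 6 lists of 65 genes, of which 63 were found at a locus; Ak6 and Slc25a4 were not analysed here. Of the 63, 6 were higher by 2 or more in the adult than in the E10.5 library and 2 lower, while from E10.5 to E13.5 0 were higher and 1, Myom2, was lower. From E13.5 to the adult 6 were higher and 3 lower. As shares of the 63 these are 9.52% higher and 3.17% lower between E10.5 and adult, beside 5.59% and 8.1% of all mRNA loci counted, and 9.52% and 4.76% from E13.5 to the adult, beside 4.41% and 9.88%. The 63 genes were not filtered on level, while the loci counted had reached 1 FPKM in at least 1 library. With counts this small and bases that differ, the shares of the lists were not set apart from those of all loci. The counts by list below are descriptions only.

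In adenylate turnover, 2 of 13 genes were higher in the adult than in the E10.5 library and 0 were lower. These were Ampd3, an AMP deaminase, at 1.20, 1.97 and 16.1 FPKM, and Nt5c1a, a cytosolic nucleotidase that frees adenosine from AMP, at 0.726, 0.312 and 14.7 FPKM. Adss, which acts in making AMP, was lower by 2.08 between E13.5 and the adult (52.3 and 11.6 FPKM). The other 10 genes of the list lay between these limits in that comparison.

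In mitochondrial exchange of ADP, ATP and phosphate, 0 of 7 genes passed in any comparison. Between E10.5 and the adult the highest change was that of Vdac1 (0.78), a channel of the outer membrane that creatine kinase of the mitochondria binds, at 338, 334 and 582 FPKM. The lowest was that of Slc25a5 (-1.39), an ADP/ATP carrier, at 300, 348 and 114 FPKM. Slc25a4, another ADP/ATP carrier of this list, was not analysed here, so these values do not cover all such carriers.

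Of 12 genes of precursor supply, 1 was higher and 0 were lower between E10.5 and the adult. Arg1, an arginase that splits arginine, was at 0.0772, 0.129 and 52.0 FPKM. It belongs with arginine use, not its supply, and is also known from macrophages and liver, whose marker sums are given above. Its part in the supply of creatine was not tested.

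Of 8 genes grouped with the creatine transporter (other Slc6 genes, and Slc16a12 from another carrier family), 0 were higher and 2 lower between E10.5 and the adult. Slc16a12, a carrier also known to move creatine, was at 19.4, 12.1 and 1.02 FPKM and Slc6a13, a carrier of GABA and taurine, at 4.65, 5.96 and 0.0236 FPKM. The 2 carriers known to move creatine therefore differed in direction, Slc6a8 by 1.497 and Slc16a12 by -3.33 on the log2(FPKM + 1) scale.

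Among 8 docking partners and ATPases served by creatine kinase, 3 were higher by 2 or more from E10.5 to the adult and 0 lower. Myom2 has been described above. Atp2a2, the calcium pump of the sarcoplasmic reticulum, was at 337, 228 and 2456 FPKM. For both of these the E13.5 level was the lowest of the 3 libraries, as for Ckmt2.

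Of 16 transcription regulators known for muscle creatine kinase or mitochondrial genes, 0 passed in any comparison as deposited. The nearest was Tead1 from E10.5 to E13.5, at -1.97, which passed with median-of-ratios scaling (-2.10). The highest change between E10.5 and the adult was that of the locus joining Esrra and Prdx5 (1.82), at 59.6, 130 and 212 FPKM, and the lowest that of Tead1 (-1.09), at 49.5, 11.9 and 22.7 FPKM.

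**Figure D5:**
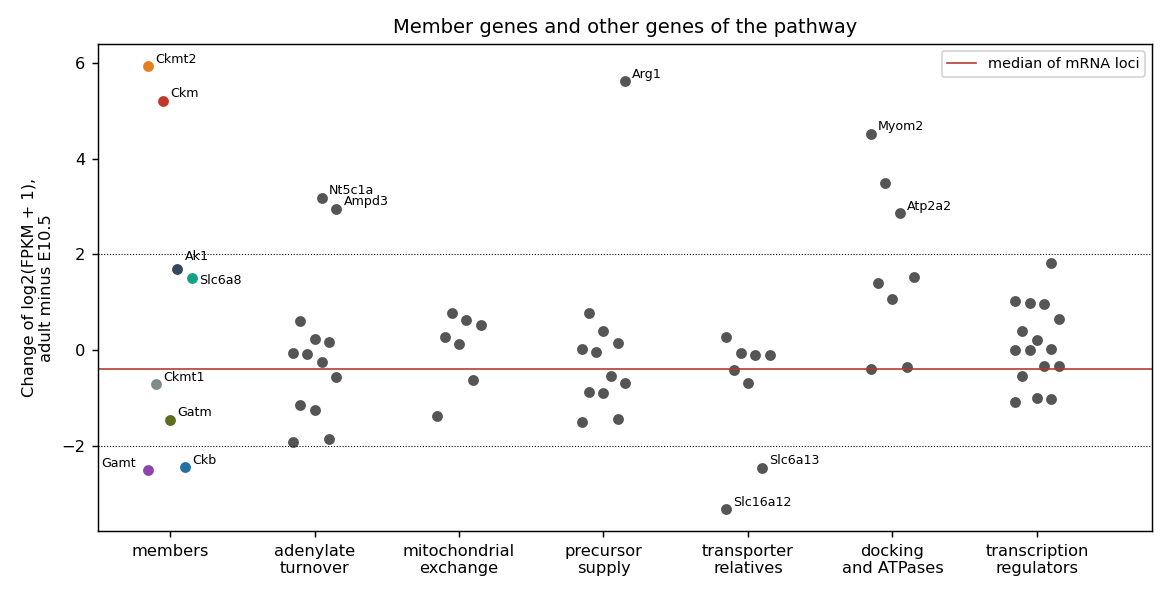
Change of log2(FPKM + 1) from E10.5 to the adult of the 8 members (coloured) and of 63 other genes in 6 lists (grey, 1 gene in 2 lists), 1 library per stage. Dotted lines mark 2 and -2, most genes past them are named, and the red line is the median of the mRNA loci at -0.40; 6 list genes lie above 2 and 2 below -2.

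Genes with the most similar pair of successive changes were sought among 7358 single-gene mRNA loci that reached 10 FPKM in some library. The distance is the sum of the absolute differences of the changes on the log2(FPKM + 1) scale, over 3 libraries only. For Ckm these included Asb11 (distance 0.20; 2.64, 5.36 and 125 FPKM) and Ccl9 (0.23). For Ckb they were Car2, a carbonic anhydrase (0.07; 26.6, 43.4 and 3.78 FPKM), Lta4h (0.12) and Vim, an intermediate filament protein (0.12; 595, 965 and 101 FPKM), and 75 loci lay within 0.5. For Ckmt2 no locus lay within 0.5, and the nearest were Myom2 (1.41), Xirp2 (1.65; 3.54, 0.194 and 114 FPKM) and Ptgds (2.09; 2.03, 0.660 and 245 FPKM). For Ckmt1, whose change is small on this scale because its level is low, they were Asxl1, Eif4g3 and Pcm1, among 294 loci within 0.5.

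Promoter sequences are shown for the 4 members that passed 2 between E10.5 and the adult, Ckm and Ckmt2 with higher and Ckb and Gamt with lower adult levels. Each line is the 250 bases before the RefSeq start on GRCm38.p6, read 5′ to 3′ on the gene's strand, from chr7:19410844-19411093 (plus), chr13:91876886-91877135 (minus), chr12:111672339-111672588 (minus) and chr10:80261013-80261262 (minus). Capitals mark matches of the motifs searched on both strands.
Ckm: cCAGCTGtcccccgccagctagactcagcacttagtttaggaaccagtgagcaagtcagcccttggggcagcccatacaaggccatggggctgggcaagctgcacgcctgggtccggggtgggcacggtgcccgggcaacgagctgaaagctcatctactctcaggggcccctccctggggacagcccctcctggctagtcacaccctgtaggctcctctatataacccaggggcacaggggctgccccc
Ckmt2: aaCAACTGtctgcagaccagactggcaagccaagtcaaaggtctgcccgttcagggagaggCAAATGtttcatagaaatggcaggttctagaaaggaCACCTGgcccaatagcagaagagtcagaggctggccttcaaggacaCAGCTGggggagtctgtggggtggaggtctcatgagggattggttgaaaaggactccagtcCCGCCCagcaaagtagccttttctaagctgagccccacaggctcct
Ckb: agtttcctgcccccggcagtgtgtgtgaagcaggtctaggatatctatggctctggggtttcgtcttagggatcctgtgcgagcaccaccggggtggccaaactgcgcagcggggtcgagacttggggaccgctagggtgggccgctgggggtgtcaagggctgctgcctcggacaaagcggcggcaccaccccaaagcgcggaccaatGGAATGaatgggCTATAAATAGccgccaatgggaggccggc
Gamt: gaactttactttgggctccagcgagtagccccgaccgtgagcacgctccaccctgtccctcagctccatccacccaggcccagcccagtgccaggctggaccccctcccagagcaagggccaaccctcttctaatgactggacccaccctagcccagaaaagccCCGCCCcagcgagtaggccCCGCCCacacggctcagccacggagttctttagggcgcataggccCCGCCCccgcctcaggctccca

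The capitals in Ckm are 1 E-box (CANNTG), at the far end of the window. Those in Ckmt2 are 4 E-boxes and 1 GC box (GGGCGG, here on the other strand). In Ckb a MEF2 site (29 to 20 bases before the start) contains a TATA box, the letters TATAAA, and lies near an MCAT element, the letters CATTCC read on the other strand. In Gamt the capitals are 3 GC boxes on the other strand. The Gamt window also holds the start of the gene Dazap1 on the opposite strand (chr10:80261237), so it is not the sequence of Gamt alone. Of all 32851 windows of this length, 66.2% hold an E-box, 32.7% a GC box, 12.6% an MCAT element, 12.4% the TATA letters and 2.92% a MEF2 site. The CArG box (1.47% of the windows) and the ERR site AAGGTCA (4.08%) had no match in these 4 windows. A match is a description of the letters and not of a bound factor.

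The window of Ckb holds 16 CpG and that of Gamt 12, against 6 for Ckm, 2 for Ckmt2 and a median of 6 over all windows. The GC content was 62.8%, 66.8%, 64.8% and 54.0%, against a median of 52.4%. RefSeq windows were found for 7 of the 8 members (Ckm, Ckb, Ckmt1, Ckmt2, Gamt, Gatm and Ak1). The RefSeq start of Gamt lies 44 bases from the start in the deposited annotation.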

How the data were processed

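Total RNA of heart ventricle was made into stranded paired-end libraries, 1 per stage. The authors aligned reads to the mm10 genome (TopHat2) and built transcripts with Cufflinks, as their methods state. They deposited FPKM values per merged locus and the annotation of the merged transcripts. Transcripts were built both with a UCSC annotation as guide and without one. Other options, versions and the handling of multiply mapped fragments are not given in the sources used here. All 66 introns of the members' RefSeq transcripts were introns of GENCODE M21, so coordinates are GRCm38.

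Members, lists and the rule for named genes were chosen with earlier results of these data known. Named genes were all members, list genes past 2 between E10.5 and the adult (otherwise the highest and lowest of a list), the 3 most alike genes and the nearest mRNA loci. A change is the difference of log2(FPKM + 1), which understates low genes, counted at 2 over mRNA loci with 1 FPKM or more in at least 1 library. Depth was estimated from the lowest step of FPKM times length over 27879 single-exon loci, at about 13.8, 26.7 and 13.8 fragments per FPKM and kb. No test was made, since each stage has 1 library. Alternatives were 2 other pseudocounts (0.1 and 0.01), 3 rescalings, 2 thresholds (1 and 3) and other filters on low values. Counting was tested on simulated data. Promoters came from RefSeq (GRCm38.p6). Protein sequences were not analysed here. Some genes that met the rule for named genes are not reported here. Calculations used Python 3.11.15, numpy 2.4.6 and pandas 2.3.3.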

Additional observations from a re-analysis of the deposited data

How the results depend on the processing

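No paired analysis was possible because there is only 1 library for each stage, and no library could be left out. No member change that reached 2 as deposited changed sign under any alternative, while the changes of Slc6a8 and Gamt from E10.5 to E13.5, near 0, were below 0 in all 3 rescalings. Of 120 counts recomputed, 93 stayed within 1.5 times the main count. Other filters on low values and leaving out joined loci changed none of these counts. The 93 thus rests partly on settings that could hardly change them. With a pseudocount of 0.1, 2 members (Ckmt2 and Ckmt1) were lower in E13.5 than in E10.5, and of the other pathway genes 1 was higher and 3 lower in that comparison, 6 lower in the adult than in E13.5 and 6 lower than in E10.5. Of all loci, 2.63% were then higher and 1.02% lower in E13.5 than in E10.5, and 16.2% lower in the adult than in E13.5. Between E10.5 and the adult, 1696 of the 12569 loci were then lower in the adult. With 0.01, 2 members were lower in E13.5 than in E10.5, and 2 others were higher and 4 lower, beside 3.48% and 1.62% of all loci. In the adult 9 others were lower than in E13.5 and 7 lower than in E10.5, beside 17% and 14.4% of all loci. The change of Ckmt1 from E10.5 to the adult was -2.44 with 0.1 and -3.55 with 0.01, against -0.72, on about 1.2 fragments in the adult. With each of the 3 rescalings 2 other genes were lower in E13.5 than in E10.5 (with median of ratios, Myom2 and Tead1). Of all loci, 0.382% were lower there with median of ratios and 0.778% with equal sums of all loci. With equal sums without globin, mitochondrial-genome and short loci the share was 0.557%. With equal sums of all loci 1 member was lower in the adult than in E13.5, since Gamt came to -1.85, while Slc6a8 came to 2.27 and the change of Ckmt1 in that comparison to 0.02. Of all loci, 9.04% were then higher and 4.96% lower in the adult than in E13.5. At a threshold of 1, 4 members were higher in the adult than in E10.5, and the other genes counted 1 higher and 5 lower (E13.5 against E10.5), 12 and 10 (adult against E13.5) and 11 and 12 (adult against E10.5). The shares of all loci at that threshold were 5.89% and 4.85%, 13% and 32.1%, and 14.8% and 27.3%. At a threshold of 3, 0, 1 and 0 members were lower in these comparisons in turn, as were 0, 0 and 1 other genes. Of all loci, 0.0557%, 3.62% and 3.14% were lower at that threshold. As a share of all 4 creatine kinases, not of its pair, Ckmt2 was 24.5%, 3.56% and 57.1%, against 97.0%, 98.3% and 99.997% of the mitochondrial pair, and Ckm in the adult was 42.6%. No member lies at more than 1 locus, so summing over loci gave no other value. The lowest values are limited by depth, and variation between animals was not measured.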

Other observations

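The nearest mRNA loci on each side of the members gave values of their own. Gamt and Dazap1, an RNA-binding protein gene, start 269 bases apart on opposite strands, and Dazap1 was at 31.0 FPKM in the E10.5 library, 54.8 in the E13.5 library and 12.2 in adult ventricle, with a change of -2.08 from E13.5 to the adult beside -2.60 for Gamt. On its other side Ndufs7, a subunit of complex I, was at 134, 213 and 323 FPKM. Beside Ckm, Mark4 was at 6.69, 5.59 and 2.76 FPKM and Klc3 at 0.955 and 1.49 FPKM in the embryonic libraries and listed at 0 in the adult, so neither was high where Ckm was. Beside Ckb, Mark3 was at 36.2, 46.5 and 16.7 FPKM and Trmt61a at 4.95, 5.62 and 1.81.

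Rasgrf2, 2701 bases from Ckmt2 on the same strand, was at 0.498, 0.308 and 4.67 FPKM, and Zcchc9 on the other side at 18.3, 20.7 and 10.4. Ckmt1 lies between Ppip5k1, at 3.96, 3.10 and 23.7 FPKM, and Strc, which overlaps its end by 10 bases and was listed at 0 in all 3 libraries. Slc6a8 lies between Pnck (1.95, 4.04 and 1.66 FPKM) and Bcap31 (50.5, 67.5 and 43.7 FPKM), and an unnamed locus that starts 1672 bases away on the opposite strand was at 0.608, 0.681 and 1.62 FPKM. The locus joining Gm14085 and Slc28a2 beside Gatm was at 0.291, 0.141 and 9.65 FPKM and Spata5l1 at 3.10, 2.11 and 1.27. Beside Ak1, Eng, an endothelial receptor gene, was at 41.5, 16.6 and 18.0 FPKM and the locus joining St6galnac4 and St6galnac6 at 17.7, 22.5 and 23.1.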
